A study of Rattus norvegicus with 30 samples.

Results

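Hepatocytes of male Sprague Dawley rats that had been held in 100 uM methapyrilene hydrochloride were compared 48 h and 24 h after dosing, to see how RNA levels moved with time in treated cells. The arrays were chosen by their titles, which name this dose and one of these times. They number 5 at 48 h and 5 at 24 h, or 10 of the 30 arrays of the series. The vehicle was not subtracted, so each change holds both what time in culture does and what longer exposure does. The same comparison in the 10 arrays of DMSO cultures is given beside it.

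Methapyrilene is an antihistamine that causes liver tumours in rats, and the study followed its effect on cultured hepatocytes at 2 doses and 2 times. Purchased frozen cells were thawed onto collagen, overlaid with Matrigel, a basement membrane gel, and dosed on day 3 of culture with 100 uM or 3 uM methapyrilene or with vehicle alone, then harvested after 24 or 48 h. The vehicle in all groups was DMSO. The labels give it as 1%, but the protocol gives that share for the concentrated dosing solutions, so how much the cells met in the medium cannot be read from them. Every one of the 6 groups was 5 wells, described as independent cultures. No donor animals are named, so the p-values below measure the spread between wells, and n = 5 holds for every group.

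Hepatocytes make most plasma proteins and carry the cytochrome P450 enzymes that oxidise drugs, bile acids and steroids. Once they leave the liver and are plated, transcripts of many of these specialised genes decline over days, and in the male rat several P450 genes (Cyp2c11, Cyp2c13, Cyp3a2) depend on the pulsed growth hormone of the living animal. Methapyrilene is itself turned into reactive products by P450 enzymes, and hepatocytes answer such products with the NRF2 pathway, which raises glutathione and quinone-reducing enzymes, and answer amino acid shortage or unfolded protein with the transcription factors ATF4 and CHOP.

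On the deposited MAS5 scale, array medians ran from 385 to 425 at 24 h and from 400.2 to 433 at 48 h. The mean signal after trimming 2% at each end was 1500.54 to 1500.66 on all 30 arrays. The deposited signals thus share a common scaling, and likeness in overall level is no sign of array quality. A principal component analysis of the 10 arrays put the times apart on the first component (21.4% of the variance), where scores ran from -15.4 to -8.46 at 24 h and from 7.94 to 23.6 at 48 h. Replicate 3 at 48 h stood apart on the second component (15.8%) with a score of -25.9, against 9.03 to 11.7 in the other arrays at 48 h. All 15 hepatocyte markers measured were above the array median on all 10 arrays. Of the markers of other cells, 5 of 19 for Kupffer cells and leukocytes, 4 of 16 for stellate cells, 2 of 11 for sinusoidal endothelium and 2 of 10 for bile duct cells were so. In that order these were Cd68, Lyz2, Cd14, Aif1 and Fcer1g, then Acta2, Des, Col3a1 and Sparc, then Kdr and Fcgr2b, then Epcam and Ggt1. Epcam was bright, with means of 11048 and 11150 at 24 and 48 h. In the same order 6, 6, 8 and 6 markers were above the median on none, among them Adgre1, Ptprc, Lrat, Pdgfrb, Pecam1, Stab2, Krt7 and Krt19. Summed over the array, the hepatocyte markers gave 637718 to 761949 at 24 h against 599102 to 654721 at 48 h (exact permutation test, two-sided, p = 0.0635, adjusted 0.148 over 7 comparisons). The Kupffer cell and leukocyte sum was 19686 to 21871 at the earlier time and 16423 to 20560 at the later one (exact permutation p = 0.0317, adjusted 0.111). GAPDH control probe sets at the 3' and 5' ends, whose ratio is a sign of RNA length, gave 1.075 to 1.137 at 24 h and 1.024 to 1.07 at 48 h without overlap (exact permutation p = 0.00794, the smallest that 5 against 5 can give, adjusted 0.0556), and those of beta-actin gave 2.741 to 2.839 and 2.482 to 3.431 (exact permutation p = 0.921). What part cell composition or RNA length has in the changes below was not tested, and fewer cells of a type cannot be told apart from less RNA per cell in such cultures.

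Between 24 and 48 h in 100 uM methapyrilene, 971 of 10222 genes changed (9.5% of genes tested; limma, Benjamini-Hochberg adjusted p under 0.05). Of these, 515 rose (5.04%) and 456 fell (4.46%), and the median log2 change of all genes was 0.009. The counts for gene lists below are to be read beside these shares. Most changes were small: 90 genes rose (0.88%) and 88 fell (0.861%) by at least 1.5-fold, and 25 rose and 24 fell by at least 2-fold. In 709 of the 971 called genes the 5 arrays of one time all lay above the 5 of the other, as they did in 10.5% of all genes tested (4.95% higher and 5.52% lower). Without replicate 3 at 48 h, 804 genes were called, 416 higher and 388 lower. With each array centred on its own median in place of the deposited scaling, 566 were called, 247 higher and 319 lower.

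DMSO cultures changed over the same day in 458 genes (4.48%), with 263 higher (2.57%) and 195 lower (1.91%). The 2 comparisons share no array. Among genes that rose at 100 uM, 106 also rose in DMSO, which is 20.6% of the 515 and 40.3% of the 263. Among genes that fell, 99 fell in both, or 21.7% of the 456 and 50.8% of the 195. Across all genes the 2 log2 changes correlated at r = 0.348, a description over genes, which are not independent. The difference between the 2 changes itself passed the test in 169 genes (1.65%), of which 63 were more positive at 100 uM (0.616%) and 106 more negative (1.04%). Only 9 genes were called in opposite directions, and they are Car5a, Dcaf11, Gstt3, Idi1, Polg2, Ces1d, Hamp, Msmo1 and Slc25a15.

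**Figure D1:**
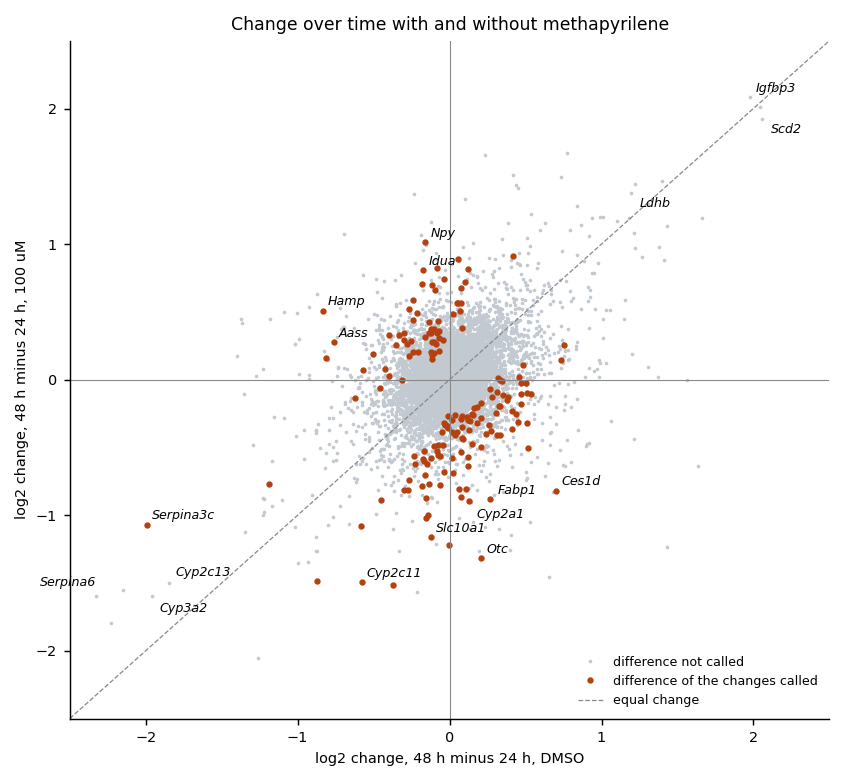
Log2 change from 24 to 48 h in DMSO cultures (x axis) against 100 uM methapyrilene cultures (y axis), one point per gene, with 10222 genes. Dark points mark the 169 genes whose 2 changes differed, and the dashed line marks equal change. Scd2 and Igfbp3 lie near that line, while Otc, Ces1d, Slc10a1 and Fabp1 lie far below it and Npy, Hamp and Aass above it.

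The P450 genes, listed together with their reductase Por, were the list that moved most (median log2 change -0.54, against 0.009 over all genes). Of 28 measured, 19 fell and 2 rose (Cyp1a1 and Por), and 23 of the 28 values were negative. In DMSO 10 fell and 0 rose (median -0.13). Members of the Cyp2a, Cyp2c, Cyp2d and Cyp3a families are close copies of each other, so the probe set of one can take signal from another, and their separate values are uncertain to that extent. The count was 19 lower and 2 higher without replicate 3 at 48 h too.

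Cyp3a2, a male-predominant P450 that hydroxylates steroids and many drugs, gave signals of 6315, 7480, 7669, 6262 and 6637 at 24 h and 2173, 1967, 2136, 2438 and 2668 at 48 h. Every array at 48 h was below every array at 24 h, and the fall was 3.03-fold (log2 -1.60 ± 0.11 SE, limma adjusted p = 6.51e-13). In DMSO it went from 6203 ± 428 to 1615 ± 306 (SD), a log2 change of -1.96. The promoter of Cyp3a2 is shown because this gene had, after Sez6l2, the largest fall among called genes whose times did not overlap and whose 24 h mean was above the mean array median. It covers the 250 bases before the start in RefSeq on GRCr8, chr12:14343858-14344107, minus strand, and the capitals mark CAAAGTCCA, a sequence of the kind bound by HNF4, found 97 to 89 bases before the start.
Cyp3a2: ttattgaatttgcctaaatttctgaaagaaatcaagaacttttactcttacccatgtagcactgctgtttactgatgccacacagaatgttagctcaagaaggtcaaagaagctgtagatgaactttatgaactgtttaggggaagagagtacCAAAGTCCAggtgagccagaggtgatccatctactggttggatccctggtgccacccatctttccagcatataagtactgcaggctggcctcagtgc
CAAAGTCCA was present on either strand in 0.338% of 33469 rat promoters of this length. It overlaps none of the other motifs searched, and its presence is a description of the sequence, not a measured binding site.

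Cyp2c13 and Cyp2c11 are further male-specific steroid hydroxylases. For Cyp2c13 the arrays read 7265, 6649, 8343, 6509 and 6254 at 24 h and 2270, 2250, 2316, 2847 and 2659 at 48 h, a fall of 2.84-fold (log2 -1.50 ± 0.09, adjusted p = 8.55e-14), beside -1.85 in DMSO. Cyp2c11 read 10197, 11179, 11561, 10734 and 9191 at 24 h and 4365, 4195, 3278, 3643 and 3372 at 48 h, or 2.81-fold lower (log2 -1.49 ± 0.10, adjusted p = 1.84e-12). The times did not overlap for either gene. They differed in how DMSO cultures behaved, since the log2 change of Cyp2c11 was -0.58 there, from 12116 ± 793 to 8141 ± 979. Its change at 100 uM was the more negative by 0.91 ± 0.15 (adjusted p = 0.000376), whereas for Cyp2c13 the difference of 0.35 ± 0.13 did not pass the test (adjusted p = 0.233). Cyp2c12, the female-specific member of the family, was dim and went from a range of 826 to 981.5 down to a range of 319.7 to 478.9 (log2 -1.26 ± 0.13, adjusted p = 6.65e-09).

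The xenobiotic-metabolising Cyp1a pair moved in opposite directions. Cyp1a2, which oxidises caffeine and aromatic amines, read 10639, 9783, 9502, 9992 and 11940 at 24 h and 3877, 3700, 2929, 3915 and 4148 at 48 h, a fall of 2.80-fold (log2 -1.49 ± 0.10, adjusted p = 3.72e-13). Cyp1a1, the classic target of the aryl hydrocarbon receptor, read 7745, 8353, 8024, 8205 and 9147 at 24 h and 12668, 14486, 12204, 14286 and 12752 at 48 h, a rise of 1.60-fold (log2 0.68 ± 0.08, adjusted p = 1.85e-07). Neither gene's times overlapped. DMSO cultures had 30122 ± 2185 and 31748 ± 2049 for Cyp1a1, so the treated level at 48 h was still below both, and the log2 difference between the 2 changes was 0.60 ± 0.11 (adjusted p = 0.00223). For Cyp1a2, DMSO fell by 0.87 and the 100 uM change was the more negative by 0.62 ± 0.14 (adjusted p = 0.0112).

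Cyp2e1, which oxidises ethanol and small solvents, read 1995, 1593, 2066, 1763 and 1396 at 24 h and 563, 670.9, 831.7, 758.7 and 641.1 at 48 h (2.54-fold lower, log2 -1.34 ± 0.13, adjusted p = 3.39e-09), next to -0.93 in DMSO. Cyp2a1, a testosterone hydroxylase, went from 3181, 3674, 2869, 3232 and 2839 to 1881, 1775, 1494, 1772 and 1548 (log2 -0.90 ± 0.10, adjusted p = 6.87e-08). Both sets of arrays were apart. DMSO cultures held Cyp2a1 at 7025 ± 1226 and 7622 ± 637, and the difference between the changes was -1.03 ± 0.14 (adjusted p = 3.4e-05). The other called members that fell did so by 0.29 (Cyp3a23-3a1) to 1.07 (Cyp2c7) on the log2 scale, and they are Cyp2c7, Cyp2a2, Cyp2d2, Cyp2c23, Cyp3a18, Cyp4f1, Cyp2d3, Cyp2j3, Cyp2b3, Cyp3a9, Cyp2c6v1 and Cyp3a23-3a1. Por, the reductase that feeds electrons to all microsomal P450 enzymes, changed by 0.24 ± 0.08 with an adjusted p of 0.0475, and it missed the threshold without 8 of the 10 arrays in turn (adjusted p up to 0.16) and with median centring (adjusted p = 0.239). Not called were Cyp2d4, Cyp4f4, Cyp2j4, Cyp4f6, Cyp1b1, Cyp2c22 and Cyp4v3, with log2 changes from -0.26 to 0.08.

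Secreted plasma proteins fell as well: 25 of 55 measured fell and 0 rose (median -0.19), and in DMSO 17 fell and 0 rose (median -0.08). With quantile normalization 26 fell and 3 rose. Serpina6, the corticosteroid-binding globulin, read 3086, 2650, 3175, 2552 and 3159 at 24 h and 867.5, 787.5, 1352, 1091 and 965.5 at 48 h, 2.93-fold lower (log2 -1.55 ± 0.14, adjusted p = 8.75e-10). In DMSO it went from 2417 ± 312 to 547 ± 91.4 (log2 -2.15). C9, the pore-forming last component of complement, went from a range of 7600 to 9445 to one of 3342 to 3926 (log2 -1.27 ± 0.10, adjusted p = 9.81e-12). The vitamin E carrier afamin (Afm) went from between 5728 and 6576 to between 2580 and 3145 (log2 -1.16 ± 0.07, adjusted p = 8.55e-14), and DMSO changed by -0.88 for each of these 2 genes.

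Lcat, which esterifies cholesterol on high-density lipoprotein, read 3472, 3450, 3245, 3095 and 2968 at 24 h and 1424, 1557, 1567, 1664 and 1463 at 48 h (2.11-fold lower, log2 -1.08 ± 0.08, adjusted p = 1.84e-12). The arrays of the 2 times were far apart. Lcat changed by -0.58 in DMSO, and the difference of -0.50 ± 0.11 passed the test (adjusted p = 0.009). Apoa2, a structural protein of the same lipoprotein, was among the brightest members and went from 36541 ± 3413 to 19179 ± 1812 (SD; log2 -0.93 ± 0.07, adjusted p = 9.81e-12), beside -1.17 in DMSO. The remaining called members were apolipoproteins (Apoc4, Apoc1, Apoc2, Apom), protease inhibitors (Serpind1, Serpinc1, Serping1, Serpinf2, Itih2, Fetub), clotting and fibrinolysis proteins (Plg, F9, F10), complement (C6, C5, C3) and Vtn, Pon1, Pon3 and Cp, with log2 changes from -0.79 to -0.28.

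**Figure D2:**
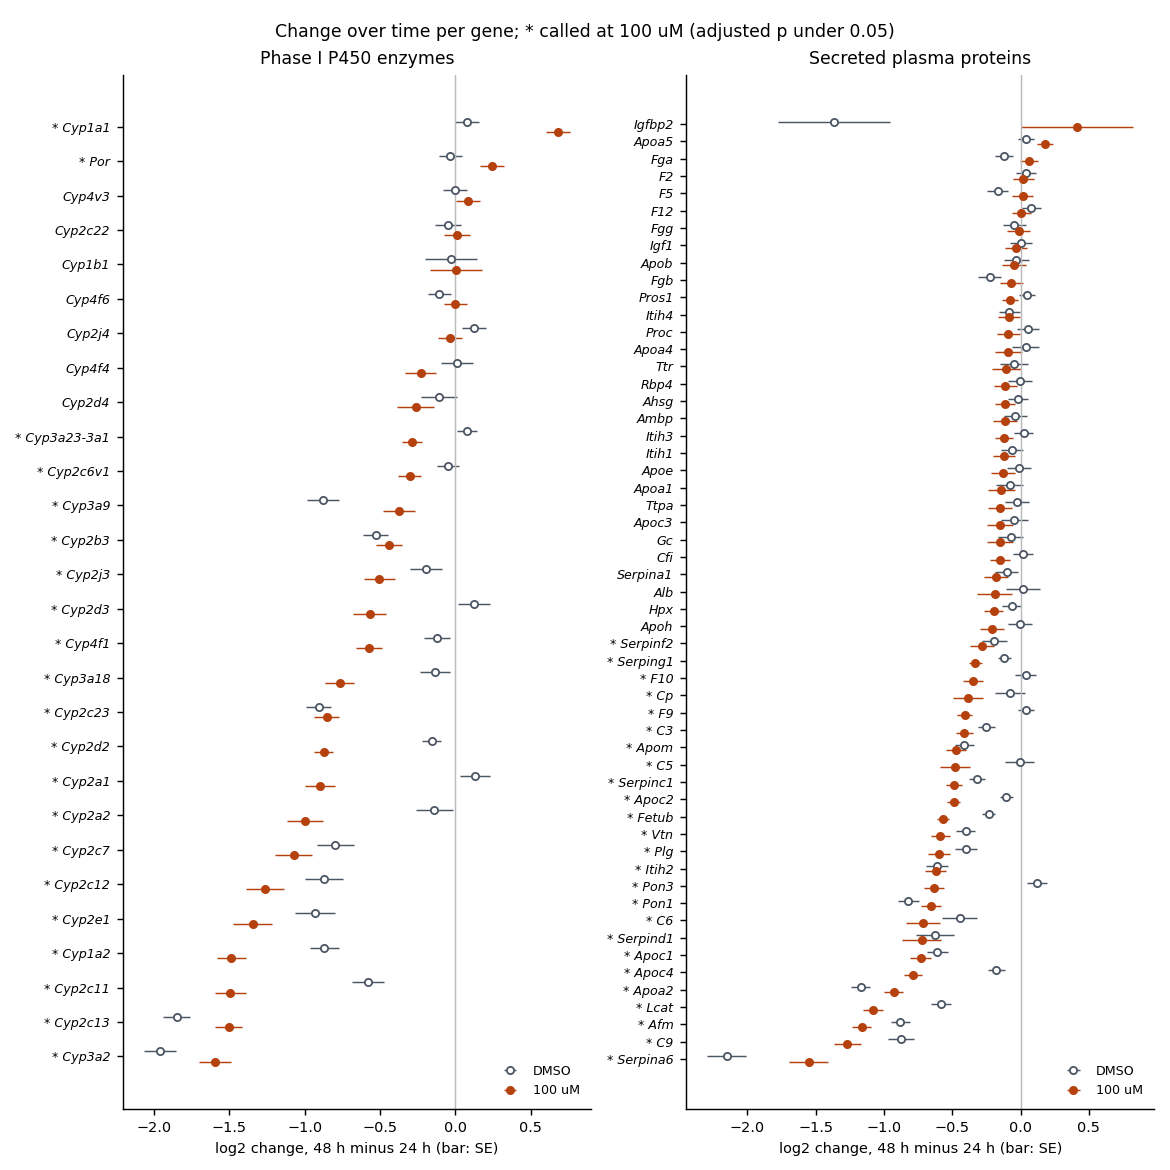
Log2 change from 24 to 48 h (x axis) for each gene of the P450 list, which includes Por (left), and each secreted plasma protein gene (right) measured, with the SE as a bar. Filled points are 100 uM cultures, open points DMSO, and a star marks the genes called at 100 uM (21 of 28 and 25 of 55). Most filled points lie left of 0, and Cyp1a1 lies to the right.

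Acute phase and cytokine genes gave 10 lower and 2 higher of 33 (median -0.19; DMSO 9 lower and 1 higher, median -0.17), with 8 lower and 2 higher without replicate 3 at 48 h. Serpina3c, an alpha-1-antichymotrypsin-like inhibitor, read 27324, 21151, 22563, 19467 and 20501 at 24 h and 9871, 9707, 10463, 11646 and 10944 at 48 h (2.10-fold lower, log2 -1.07 ± 0.10, adjusted p = 1.22e-09). The fall was smaller than in DMSO, where it went from 19394 ± 1360 to 4919 ± 850 (log2 -1.99), and the difference of 0.92 ± 0.14 passed the test (adjusted p = 0.000167). Apcs, serum amyloid P, fell from between 21062 and 23210 to between 13899 and 15143 (log2 -0.63 ± 0.05, adjusted p = 1.02e-10). Lbp, which presents bacterial lipopolysaccharide to CD14, rose from between 8414 and 9435 to between 11077 and 12148 (log2 0.38 ± 0.08, adjusted p = 0.00131). Cd14 itself fell from between 6650 and 7928 to between 4143 and 6212 (log2 -0.53 ± 0.10, adjusted p = 0.000201). Cd14 is also a leukocyte marker. The summed leukocyte markers, with the ranges given above, include Cd14 and so are not a separate measure.

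Hamp encodes hepcidin, the hormone that lowers iron export. Its arrays read 5944, 4936, 8300, 4925 and 6277 at 24 h and 7107, 6457, 9201, 11027 and 9437 at 48 h, so the 2 times overlapped (log2 0.51 ± 0.14, adjusted p = 0.0178). The call was lost when replicate 2 or 4 at 24 h or replicate 4 or 5 at 48 h was left out (adjusted p from 0.051 to 0.078). In DMSO, Hamp fell from 2534 ± 118 to 1442 ± 292 (log2 -0.83, adjusted p = 0.000193), and the difference was 1.34 ± 0.20 (adjusted p = 0.000113). Slc40a1, the iron exporter ferroportin, rose from between 15014 and 17310 to between 20640 and 22461 (log2 0.42 ± 0.06, adjusted p = 1.87e-06), beside 0.23 in DMSO. Of 20 iron genes, 2 rose and 1 fell (15% called, against 9.5% of all genes). The latter was Id3, a target of BMP signalling (log2 -0.48 ± 0.15, adjusted p = 0.0365), whose call was lost without any 1 of 8 arrays (adjusted p up to 0.0976).

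Bile acid genes moved both ways, with 5 of 20 lower and 2 higher (median -0.007), while in DMSO 1 fell and 0 rose. Slc10a1, the sodium-dependent bile salt uptake carrier of the hepatocyte, read 1828, 2338, 1871, 1825 and 1851 at 24 h and 895.2, 908.7, 939.7, 845.7 and 743.3 at 48 h (2.24-fold lower, log2 -1.16 ± 0.13, adjusted p = 4.54e-08). All 48 h arrays were below all 24 h arrays. The DMSO cultures had 5984 ± 1205 and 5449 ± 723, and the difference was -1.04 ± 0.18 (adjusted p = 0.000914). Slc27a5, which activates bile acids with coenzyme A, went from 2612, 2946, 2701, 2912 and 2899 to 1804, 1726, 1610, 1540 and 1389 (log2 -0.81 ± 0.10, adjusted p = 1.84e-07), against 0.07 in DMSO (difference -0.87 ± 0.14, adjusted p = 0.000189). Slco1a1, an organic anion uptake carrier, was dim and went from between 400.3 and 593.8 to between 236.5 and 324 (log2 -0.74 ± 0.16, adjusted p = 0.00138). Acox2, the peroxisomal oxidase that shortens the bile acid side chain, moved the other way, from 925.2, 1025, 1074, 1012 and 1068 up to 1344, 1488, 1871, 2003 and 1641 (log2 0.70 ± 0.10, adjusted p = 6.68e-06). It changed by -0.11 in DMSO, a difference of 0.81 ± 0.14 (adjusted p = 0.000965).

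Otc, the mitochondrial enzyme that joins ornithine to carbamoyl phosphate in the urea cycle, had the largest difference from DMSO in the negative direction. It read 1417, 1131, 908.9, 1358 and 772.3 at 24 h and 698.1, 335.3, 479.4, 409.1 and 345.2 at 48 h (2.49-fold lower, log2 -1.32 ± 0.18, adjusted p = 2.27e-06). The lowest array at 24 h was above the highest at 48 h. DMSO cultures held 2042 ± 251 and 2363 ± 286, and the difference was -1.53 ± 0.25 (adjusted p = 0.000491). Slc25a15, which carries ornithine into the mitochondrion, rose from between 8089 and 9833 to between 9834 and 12261 (log2 0.29 ± 0.08, adjusted p = 0.0172) while it fell by 0.30 in DMSO. Its rise was not called without replicate 2 at 24 h or replicate 4 at 48 h (adjusted p = 0.0681 and 0.0638) or with median centring (0.0888). The other 8 urea cycle genes were not called, with log2 changes from -0.36 for Slc38a3 to 0.17 for Slc25a13. Among them was Cps1, the first enzyme of the cycle (adjusted p = 0.998).

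Fabp1, Pemt and Ces1d, which act on fatty acids, phospholipids and esters, each fell at 100 uM. Fabp1, the liver fatty acid binding protein, read 4115, 4410, 4317, 4062 and 3435 at 24 h and 2158, 1939, 2781, 2015 and 2194 at 48 h (1.84-fold lower, log2 -0.88 ± 0.10, adjusted p = 5.91e-08). DMSO had 7131 ± 360 and 8588 ± 615 for Fabp1, a difference of -1.15 ± 0.14 (adjusted p = 5.85e-06). Pemt, which methylates phosphatidylethanolamine to phosphatidylcholine, read 1277, 1424, 1632, 1156 and 695.2 at 24 h and 436.1, 516.8, 712.2, 684.7 and 314.4 at 48 h (log2 -1.22 ± 0.22, adjusted p = 0.000157), with the lowest 24 h array below the highest 48 h array. Ces1d, a carboxylesterase that hydrolyses esters and lipids, went from 1567, 1715, 1845, 1815 and 1453 to 1045, 897.1, 963.1, 955.1 and 889.6 (log2 -0.82 ± 0.14, adjusted p = 6.59e-05). In DMSO, Ces1d rose from 4060 ± 1019 to 6507 ± 947 (log2 0.70, adjusted p = 0.000958), and the difference of -1.52 ± 0.19 passed the test (adjusted p = 7.59e-06).

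Genes of fatty acid and triglyceride synthesis gave 7 higher and 2 lower of 25 (median 0.14), close to DMSO with 6 higher and 0 lower (median 0.17). Srebf1, the factor that drives lipogenesis, rose from between 2855 and 3015 to between 3998 and 4777 (log2 0.57 ± 0.09, adjusted p = 5.49e-05). Thrsp (Spot 14), a protein of lipogenic cells, rose from between 11149 and 13034 to between 17997 and 20443 (log2 0.66 ± 0.10, adjusted p = 1.66e-05), and the lipid droplet protein Pnpla3 rose by 0.71 ± 0.14 (adjusted p = 0.000535). Scd, the liver's main stearoyl-CoA desaturase, fell from between 42165 and 49724 to between 30883 and 36250 (log2 -0.43 ± 0.06, adjusted p = 2.07e-06). Of 31 fatty acid oxidation genes, 6 rose and Fabp1 fell (median 0.06; DMSO 7 higher and 0 lower, median 0.15). Among these Ech1, an auxiliary enzyme for unsaturated chains, rose from between 11226 and 12008 to between 14917 and 16713 (log2 0.46 ± 0.06, adjusted p = 2.24e-06). The peroxisomal enzyme Ehhadh rose by 0.76 ± 0.17 (adjusted p = 0.00306), with 1 array at 48 h (408.9) below 2 at 24 h. The count for oxidation genes moved to 10 higher and 1 lower with quantile normalization and to 3 higher and 1 lower with median centring.

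Scd2, a stearoyl-CoA desaturase isoform best known from brain, had one of the largest rises. It read 643.3, 868.9, 807.5, 803.2 and 833.9 at 24 h and 3002, 2881, 3231, 3290 and 2593 at 48 h, 3.80-fold higher (log2 1.92 ± 0.12, adjusted p = 1.8e-13), and the groups were far apart. DMSO cultures rose alike in value, from 640.0 ± 100.2 to 2651 ± 253 (log2 2.06). Igfbp3, a binding protein of insulin-like growth factors, read 215.1, 237.5, 106, 341.8 and 269.2 at 24 h and 873, 859.7, 643.6, 1049 and 1346 at 48 h (4.24-fold, log2 2.08 ± 0.41, adjusted p = 0.000575). The DMSO change was 1.98, but its 24 h arrays were widely spread (117.5, 626.7, 599.1, 156.2 and 131.3), so that value is uncertain. At 100 uM the 24 h signals of Igfbp3 were below the mean array median of 402.7, where the size of a fold is uncertain. Sez6l2, a membrane protein best known from brain, had the largest fall in value, from 808.8, 656.9, 333.3, 654.2 and 696 to 88.04, 93.87, 292.9, 117.8 and 229.6 (log2 -2.05 ± 0.43, adjusted p = 0.00138), and was likewise dim at 48 h. In DMSO it changed by -1.26 (adjusted p = 0.098), and the difference of the changes was not called. The promoters of these 3 genes, chosen by size of change, are shown in the same window as that of Cyp3a2. They lie at chr1:253118127-253118376 on the plus strand (Scd2), chr14:86277945-86278194 on the minus strand (Igfbp3) and chr1:190987397-190987646 on the plus strand (Sez6l2), and capitals mark CCAAT, the box bound by NF-Y.
Scd2: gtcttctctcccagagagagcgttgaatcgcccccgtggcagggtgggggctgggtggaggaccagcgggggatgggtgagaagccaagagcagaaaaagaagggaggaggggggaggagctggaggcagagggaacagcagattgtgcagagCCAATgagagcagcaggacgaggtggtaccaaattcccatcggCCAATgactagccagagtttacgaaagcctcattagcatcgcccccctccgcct
Igfbp3: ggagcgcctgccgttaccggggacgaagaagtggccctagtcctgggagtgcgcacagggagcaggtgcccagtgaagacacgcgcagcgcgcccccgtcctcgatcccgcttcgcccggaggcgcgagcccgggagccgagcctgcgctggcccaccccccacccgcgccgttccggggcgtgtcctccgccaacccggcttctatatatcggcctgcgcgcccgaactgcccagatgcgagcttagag
Sez6l2: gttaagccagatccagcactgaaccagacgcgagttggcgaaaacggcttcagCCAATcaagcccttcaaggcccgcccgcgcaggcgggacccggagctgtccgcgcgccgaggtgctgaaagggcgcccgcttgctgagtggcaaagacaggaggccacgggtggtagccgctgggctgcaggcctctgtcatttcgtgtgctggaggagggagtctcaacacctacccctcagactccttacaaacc
CCAAT stood in 34% of the 33469 promoters, at 97 to 93 and 54 to 50 bases before the start in Scd2 and at 197 to 193 in Sez6l2. The other motifs searched on both strands in these 4 promoters, with the share of all promoters that hold each, were TATAAA (12.9%), CACGTG (5.59%), TGACTCA (4.05%), TGACGTCA (1.59%), TGATGCAA (0.693%), TGACGCAA (0.436%), TTGCGCAA (0.14%), TTACGTAA (0.108%), the NF-kB motif (0.0956%) and the palindromic HNF1 motif (0.00299%), and none was in these windows.

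Ldhb and Slc25a4 were also among the 12 largest rises. Ldhb, the heart form of lactate dehydrogenase, read 1430, 1456, 1282, 1223 and 1620 at 24 h and 3528, 3618, 3738, 3591 and 3680 at 48 h (2.60-fold, log2 1.38 ± 0.10, adjusted p = 4.75e-12). Slc25a4, the heart and muscle form of the mitochondrial ADP/ATP carrier, read 8540, 7213, 8108, 7684 and 7359 and then 18443, 18135, 17651, 17162 and 17409 (2.29-fold, log2 1.19 ± 0.10, adjusted p = 3.89e-11). Neither overlapped between times, which the rule for the largest rises required, and DMSO cultures rose by 1.19 for Ldhb and 0.94 for Slc25a4. Acta1, skeletal muscle actin, rose by 1.19 ± 0.16 (adjusted p = 1.04e-06) and in DMSO by 1.66. Eno2, the neuronal enolase, went from 1344, 1439, 1442, 1618 and 2230 to 3433, 4059, 2747, 3858 and 3779 (log2 1.16 ± 0.17, adjusted p = 5.1e-06).

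Dpp7, a dipeptidyl peptidase of lysosomes and secretory vesicles, rose from 2281, 1654, 1948, 1843 and 2050 to 4274, 4361, 4751, 4552 and 4400 (2.30-fold, log2 1.20 ± 0.09, adjusted p = 1.22e-11), and in DMSO by 0.99. Clec14a, a lectin of endothelial cells, was dim at 24 h (171.2 to 303.1) and rose to between 538 and 679.2 (log2 1.30 ± 0.14, adjusted p = 5.5e-08), with 1.30 in DMSO. The sum of the sinusoidal endothelial markers was 2590 to 3503 at 24 h and 2593 to 3131 at 48 h (exact permutation p = 0.214, adjusted 0.356). Further members of the 12 largest rises were the lipid transporter Abca8a (log2 1.5 ± 0.23), Tmem14a (1.42 ± 0.35), the lipid kinase Pik3c2g (1.22 ± 0.26) and Renbp, an amino sugar epimerase (1.20 ± 0.35). At 24 h, Abca8a and Pik3c2g were below the mean array median of 402.7 on all 5 arrays and Tmem14a on 2. Renbp lost its call without replicate 2 at 24 h (adjusted p = 0.0739) or replicate 5 at 48 h (0.0599), and Pik3c2g when only the arrays of 100 uM were fitted (0.0609). Among the 12 largest falls were also Dhrs7l1, a short-chain dehydrogenase, from between 670.8 and 1097 to between 208.9 and 356.8 (log2 -1.52 ± 0.17, adjusted p = 6.3e-08), and the opposite-strand transcript Map2k3os (log2 -1.21 ± 0.28, adjusted p = 0.00374).

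**Figure D3:**
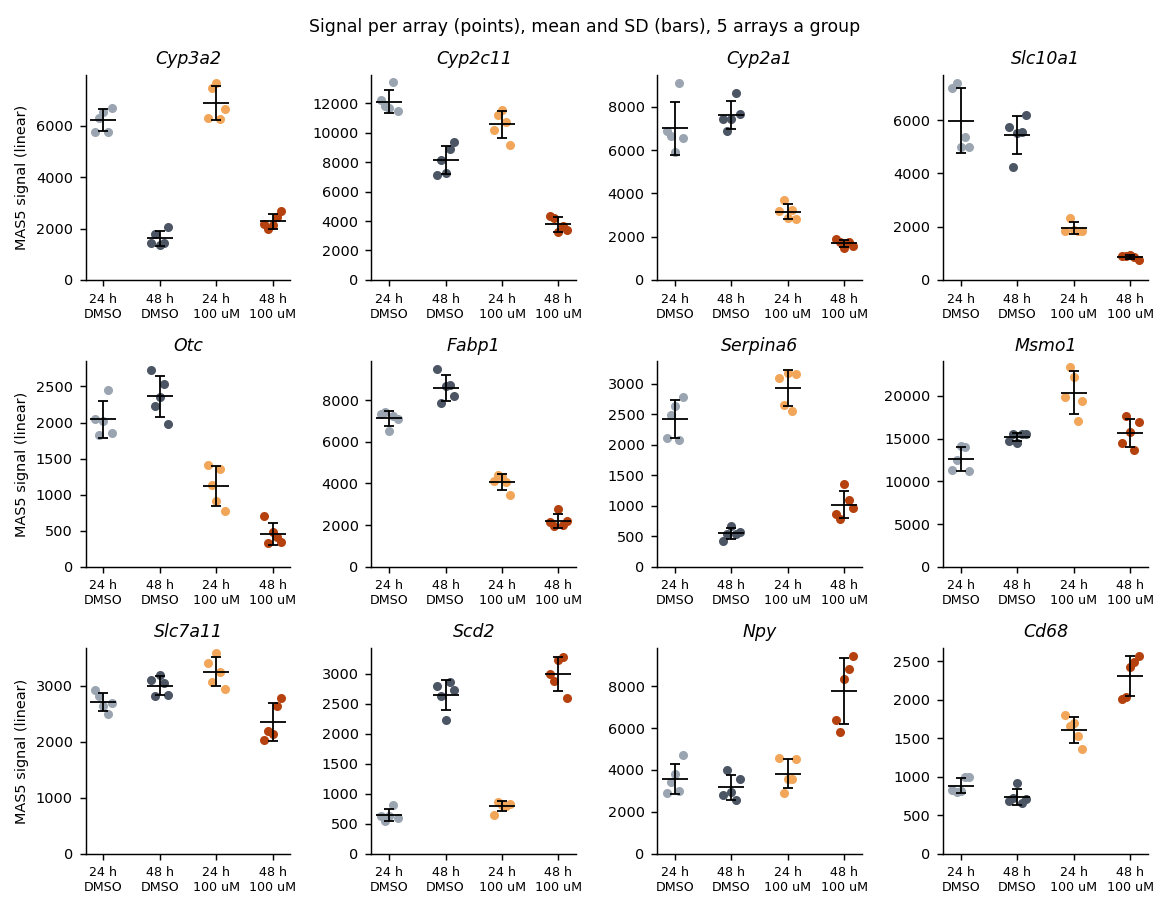
MAS5 signal on a linear scale (y axis, from 0) for 12 genes in the 5 arrays of each of 4 groups, DMSO and 100 uM at 24 and 48 h. Points are arrays, and bars are the mean and SD. Cyp3a2, Serpina6 and Scd2 moved with time in both series, while Otc, Slc10a1, Cyp2a1 and Fabp1 fell at 100 uM from 24 h levels already below those of DMSO.

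The cholesterol pathway, from acetyl groups through mevalonate and squalene to sterols, fell at 100 uM in 8 of 23 genes and rose in 0 (median -0.18). In DMSO 7 of the 23 rose and 1 fell (median 0.13), and the difference between the changes was called in 4 (17.4%, against 1.65% of all genes), all more negative at 100 uM. Without replicate 3 at 48 h, 6 fell, and with median centring 5. Msmo1, a sterol methyl oxidase, read 19847, 23427, 22258, 17084 and 19365 at 24 h and 14450, 17631, 15808, 13701 and 16892 at 48 h, with 1 array of the earlier time inside the range of the later (log2 -0.38 ± 0.08, adjusted p = 0.00112). In DMSO, Msmo1 rose from 12638 ± 1400.4 to 15189 ± 518 (log2 0.27, adjusted p = 0.0357), and the difference was -0.65 ± 0.11 (adjusted p = 0.000653). By 48 h the 2 series therefore had mean signals of 15697 and 15189. Ebp, a sterol isomerase, fell from between 8315 and 9711 to between 5568 and 6799 (log2 -0.55 ± 0.10, adjusted p = 0.000302), and the sterol reductase Tm7sf2 from between 5276 and 5943 to between 3841 and 4394 (log2 -0.43 ± 0.07, adjusted p = 3.61e-05). Unlike Msmo1, Tm7sf2 went down in DMSO as well, from between 5711 and 6563 to between 4579 and 5141 without overlap. The DMSO arrays of Ebp overlapped (7051 to 9515 and 6239 to 8737). The other called genes were Fdps, Cyp51, Idi1, Fdft1 and Pmvk, with log2 changes from -0.29 to -0.21. Sqle, the squalene epoxidase, was at 0.08 (adjusted p = 0.614) and the sterol-sensing regulator Srebf2 at 0.11 (adjusted p = 0.61).

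ATF4 and CHOP response genes gave 11 lower and 3 higher of 43 (median -0.14), where DMSO gave 2 lower and 7 higher (median 0.12). The difference was called in 9 (20.9%, against 1.65% of all genes), all more negative at 100 uM. Slc7a11, the cystine importer, read 3410, 3066, 3587, 3234 and 2943 at 24 h and 2024, 2192, 2132, 2627 and 2786 at 48 h, without overlap (log2 -0.47 ± 0.10, adjusted p = 0.00175), while DMSO had 2709 ± 159.7 and 2994 ± 169.6 (difference -0.62 ± 0.14, adjusted p = 0.0163). Its partner chain Slc3a2 fell from between 30310 and 33716 to between 24178 and 27796 (log2 -0.34 ± 0.05, adjusted p = 3.76e-06), and it fell in DMSO as well (-0.26, adjusted p = 0.000423). Nupr1, a stress-induced chromatin factor, fell from between 54088 and 64027 to between 42640 and 46179 (log2 -0.43 ± 0.07, adjusted p = 3.81e-05) and changed by 0.08 in DMSO. Cth, which makes cysteine from cystathionine, fell by 0.61 on the log2 scale (SE 0.08, adjusted p = 5.12e-07), and in DMSO it went from 18982 ± 588 to 14568 ± 906 (log2 -0.38, adjusted p = 0.00135). The amino acid genes Asns, Slc7a1, Gars1, Yars1, Sars1 and Nars1 and the factor Atf5 also fell, by 0.26 to 0.42. Higher at 48 h were Herpud1 (0.30 ± 0.05, adjusted p = 5.12e-05), Ddit4 (0.40 ± 0.11, adjusted p = 0.014) and Ddit3, which encodes CHOP itself (0.26 ± 0.07, adjusted p = 0.0174). Ddit3 lost its call without replicate 1 or 2 at 24 h or replicate 2 at 48 h (adjusted p from 0.0566 to 0.0606) and with median centring (0.102), and Ddit4 without replicate 1 at 24 h (0.053) or replicate 5 at 48 h (0.0637).

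NRF2 targets gave 11 lower and 3 higher of 34 (median -0.16), against 4 lower and 2 higher in DMSO (median 0.02). The difference between the changes was called in 2 of the 34 (5.88%, against 1.65% of all genes). The count depended on scaling, with 7 lower and 2 higher under quantile normalization and 5 lower and 1 higher under median centring. Nqo1, a quinone reductase, fell from 40338, 45521, 40429, 37931 and 33996 to 29443, 29371, 30162, 28769 and 28671 (log2 -0.43 ± 0.06, adjusted p = 3.47e-06), and the times did not overlap. In DMSO, Nqo1 also went down without overlap, from between 36158 and 41546 to between 30818 and 33531. Txnrd1, the thioredoxin reductase, fell from between 12767 and 14859 to between 10369 and 11765 (log2 -0.35 ± 0.08, adjusted p = 0.00248), and the aldo-keto reductase Akr1b8 by 0.56 on the log2 scale (SE 0.15, adjusted p = 0.0109). The DMSO arrays of Txnrd1 went from between 10590 and 13463 to between 9410 and 10692. Those of Akr1b8 went from between 4011 and 6490 to between 2816 and 4483. Gpx2, a glutathione peroxidase, rose from between 13458 and 16491 to between 18508 and 21055 (log2 0.37 ± 0.08, adjusted p = 0.00287) and did so by the same 0.37 in DMSO. The p53 list gave 2 lower and 2 higher of 24 (16.7% called, against 9.5% of all genes, median -0.03). Among them were Ccng1, cyclin G1, from between 20523 and 22172 to between 16426 and 18071 (log2 -0.29 ± 0.07, adjusted p = 0.00495), and the lysosomal membrane protein Dram1, from between 931.7 and 1215 to between 1376 and 1697 (log2 0.57 ± 0.14, adjusted p = 0.00724).

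Lysosomal genes rose in 17 of 47 and fell in 0 (median 0.19), against 5 higher and 4 lower in DMSO (median 0.07). The difference was called in 4 (8.51%, against 1.65% of all genes), all more positive at 100 uM. Median centring left 8 higher and 0 lower, and leaving out replicate 3 at 48 h gave 15 higher and 1 lower. Idua, which cleaves iduronic acid from glycosaminoglycans, read 453.5, 581.9, 470.5, 529.3 and 433.3 at 24 h and 820.2, 837.8, 793.7, 928.5 and 921.2 at 48 h (1.75-fold, log2 0.81 ± 0.16, adjusted p = 0.00073), against -0.18 in DMSO (difference 0.98 ± 0.23, adjusted p = 0.0159). The acid glucosidase Gaa rose from between 2929 and 3481 to between 4026 and 4389 (log2 0.38 ± 0.07, adjusted p = 0.000346), the beta-mannosidase Manba from between 2997 and 3196 to between 3764 and 4452 (0.39 ± 0.07, adjusted p = 0.000336) and the protective protein Ctsa from between 15375 and 17212 to between 19027 and 21003 (0.34 ± 0.06, adjusted p = 0.000328). The called list further held Dnase2b, Tpp1, Grn, Acp5, Gusb, Naglu, Man2b1, Ctsd, Lamp1, Cd63, Hexa and Npc2, with log2 changes from 0.19 to 0.44. Cd68, a lysosomal membrane glycoprotein that marks macrophages, read 1799, 1666, 1700, 1525 and 1362 at 24 h and 2015, 2043, 2420, 2489 and 2573 at 48 h (log2 0.52 ± 0.12, adjusted p = 0.00442), while DMSO had 886 ± 101.5 and 739 ± 105.1 (difference 0.78 ± 0.17, adjusted p = 0.0111). Of the 19 Kupffer cell and leukocyte markers, Cd68, Lyz2, Cd14, Aif1 and Fcer1g were above the array median on all 10 arrays. Adgre1, Ptprc, Itgam, Cd163, Cd79b and Laptm5 were above it on 0, and the other 8 on 1 to 8. Lyz2 had means of 6407 and 6529 at 24 and 48 h, and Cd14 fell as given above, from a mean of 7365 to 5130. The summed leukocyte markers were lower at 48 h by median (18396 against 20481), but the sum holds Cd68, Lyz2 and Cd14 themselves. The part of other cells in the rise of Cd68 was not tested.

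**Figure D4:**
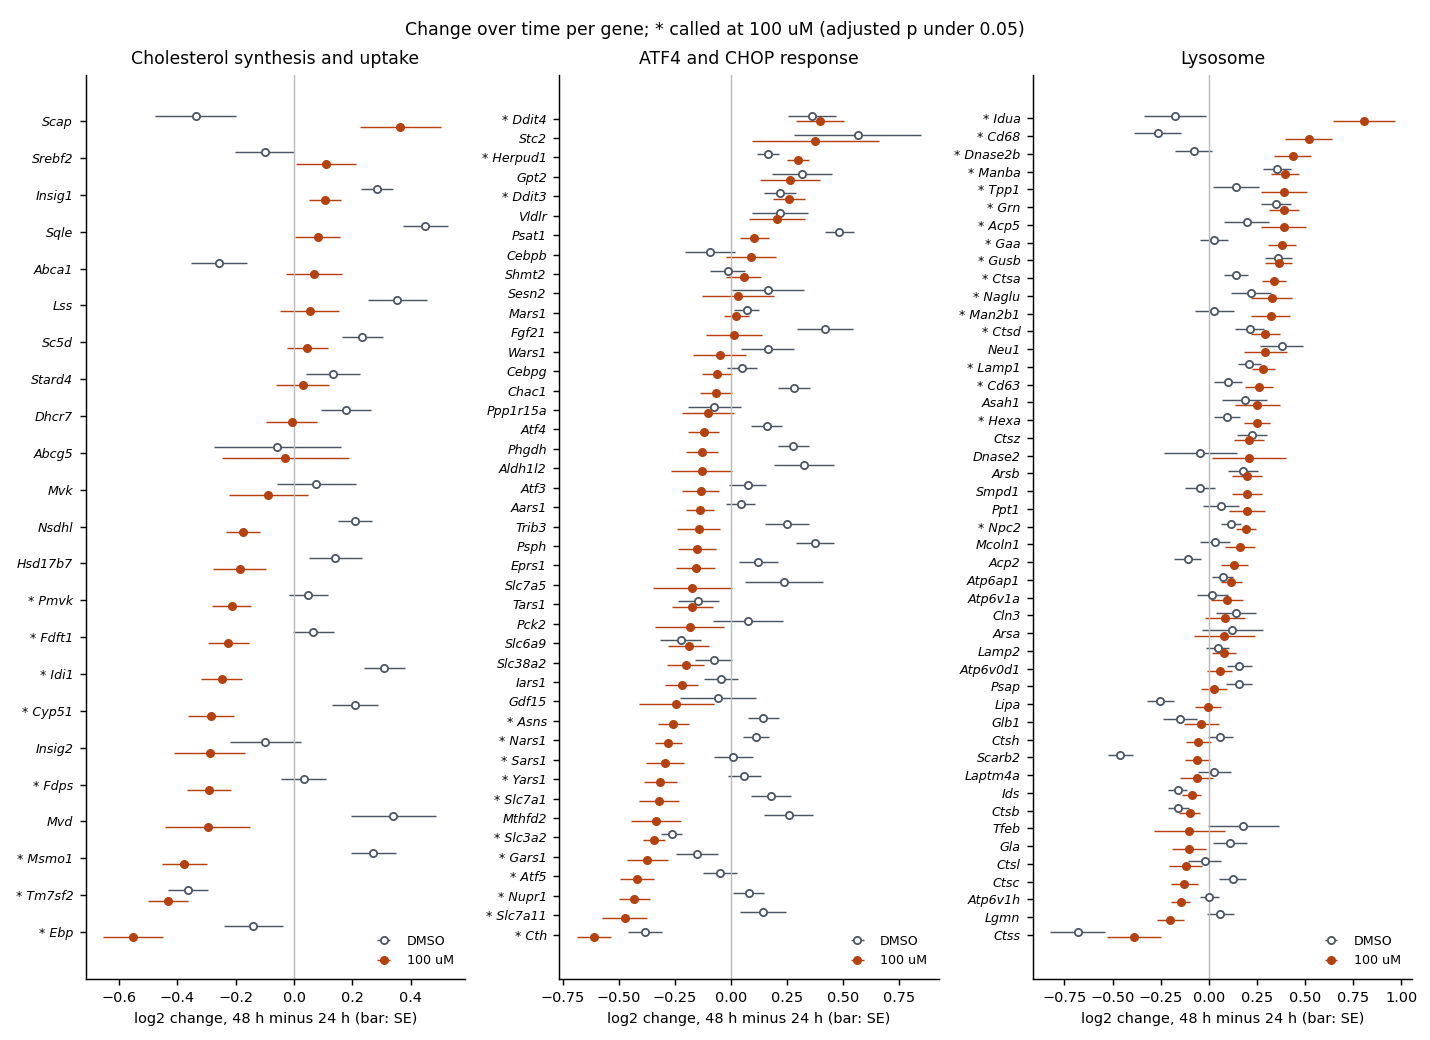
Log2 change from 24 to 48 h (x axis) for each measured gene of cholesterol synthesis and uptake, the ATF4 and CHOP response and the lysosome, with the SE as a bar. Filled points are 100 uM cultures, open points DMSO, and a star marks the 8, 14 and 17 genes called at 100 uM. In the cholesterol and ATF4 lists most filled points lie left of the open ones, and in the lysosome list most lie right of 0.

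Glycolysis and hypoxia genes rose in 9 of 28 and fell in 0 (median 0.16), and in DMSO 3 rose and 0 fell with the same median of 0.16. Besides Eno2, the lactate exporter Slc16a3 rose from between 775.8 and 1358 to between 1593 and 1910 (log2 0.78 ± 0.17, adjusted p = 0.00157) and the oxygen-sensing hydroxylase Egln3 by 0.37 ± 0.09 (adjusted p = 0.0031). Glucose-handling genes gave 5 higher and 2 lower of 22, but 1 higher and 2 lower with median centring and 6 higher and 3 lower with quantile normalization. Gckr, the regulator of glucokinase, rose from 1401, 1364, 1437, 1554 and 1427 to 2084, 1959, 1789, 1670 and 1802 (log2 0.37 ± 0.08, adjusted p = 0.000922), and Khk, which phosphorylates fructose, fell from between 4864 and 5891 to between 3534 and 4769 (log2 -0.37 ± 0.08, adjusted p = 0.00127). Each differed from DMSO, by 0.50 ± 0.11 (adjusted p = 0.009) and -0.50 ± 0.11 (adjusted p = 0.0106).

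Hepatocyte transcription factors gave 4 higher and 2 lower of 24 (median 0.11), 1 higher and 2 lower with median centring, and 2 each way without replicate 3 at 48 h or with probe sets averaged. Cebpa, which maintains hepatocyte differentiation, read 4255, 4813, 4443, 4658 and 3608 at 24 h and 3131, 3137, 2476, 3103 and 2530 at 48 h (1.52-fold lower, log2 -0.60 ± 0.09, adjusted p = 1.42e-05), with no overlap. It changed by -0.14 in DMSO, and the difference of -0.47 ± 0.13 missed the threshold (adjusted p = 0.055). Foxa1, a pioneer factor, fell from between 438.5 and 670.1 to between 261.7 and 499.9 (log2 -0.70 ± 0.18, adjusted p = 0.00841), and lost its call when only the arrays of 100 uM were fitted (adjusted p = 0.06). The glucocorticoid receptor Nr3c1 rose from between 4112 and 5343 to between 5514 and 5984 (log2 0.29 ± 0.07, adjusted p = 0.00399), but averaging its 2 probe sets gave only 0.10 (adjusted p = 0.779).

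Of 46 amino acid breakdown genes, 5 rose and 7 fell (median -0.002), and 1 rose and 4 fell with median centring. The difference from the DMSO change was called in 1 of the 46, Aass (2.17%, near the 1.65% of all genes). Gnmt, which uses S-adenosylmethionine to methylate glycine, fell from between 6342 and 7477 to between 4484 and 4949 (log2 -0.51 ± 0.12, adjusted p = 0.0028). DMSO held 15630 ± 1819 and 15636 ± 764, but the difference of the changes did not pass the test. Bhmt, which remakes methionine from homocysteine, rose from 10401, 11173, 8810, 9654 and 8253 to 14278, 14821, 13920, 12340 and 11008 (log2 0.46 ± 0.11, adjusted p = 0.00495), a level still far below the 53636 ± 4989 and 58113 ± 5077 of DMSO. Mat1a, which makes S-adenosylmethionine, was higher by 0.48 ± 0.13 (adjusted p = 0.0131), but its call was lost without replicate 3 at 48 h (0.0516), without replicate 5 at 24 h (0.0519) and with median centring (0.0559). Aass, the first enzyme of lysine breakdown, did not pass at 100 uM (0.28 ± 0.09, adjusted p = 0.0579), although it fell from 4304 ± 504 to 2536 ± 289 in DMSO and the difference of 1.04 ± 0.13 passed (adjusted p = 7.59e-06).

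Conjugation enzymes gave 2 higher and 5 lower of 32 (median -0.07). Sult1e1, the oestrogen sulfotransferase, was dim and fell by 1.26 on the log2 scale (SE 0.26, adjusted p = 0.00112), although replicate 3 at 48 h read 557.8 against 119.9 to 207.6 in the other 4. Ugt2b1, a bright glucuronosyltransferase with close copies, fell from between 33005 and 38546 to between 22635 and 29122 (log2 -0.50 ± 0.11, adjusted p = 0.00177). Npy, neuropeptide Y, rose outside any list, from 4584, 2916, 3556, 3553 and 4518 to 6383, 5794, 8330, 8831 and 9462 (2.02-fold, log2 1.02 ± 0.18, adjusted p = 0.000221), and DMSO held 3563 ± 736 and 3176 ± 598 (difference 1.18 ± 0.26, adjusted p = 0.0112). Slc4a4, a sodium bicarbonate cotransporter, rose from between 3083 and 6377 to between 8442 and 9837 (log2 0.89 ± 0.12, adjusted p = 1.02e-06), and Fam117b from between 1133 and 1850 to between 2228 and 2821 (0.82 ± 0.14, adjusted p = 7.42e-05), each called different from DMSO.

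The remaining lists are set against the 9.5% of all genes that were called. Of 41 cytosolic ribosomal protein genes 0 were called by limma (median -0.08; 2 had an unadjusted p under 0.05), although 39 of the 41 values were negative, and under quantile normalization the median turned to 0.03 with 2 higher and 1 lower. Of 68 nuclear-encoded oxidative phosphorylation genes 2 fell and 0 rose, of 42 proteasome genes 1 fell, of 32 endoplasmic reticulum chaperone genes 2 fell (6.25%; P4hb and Derl2, both lost with median centring), and of 30 heat shock genes 2 rose (6.67%). Cryab, a small heat shock protein, rose from between 10346 and 11841 to between 14994 and 15352 (log2 0.46 ± 0.08, adjusted p = 0.000174; 0.35 in DMSO). Hspb1, another small heat shock protein, had overlapping times, with up to 8812 at 24 h and down to 8156 at 48 h (log2 0.36 ± 0.11, adjusted p = 0.0326). Its call was lost without any 1 of 6 arrays (adjusted p up to 0.101), with median centring (0.0692) and without a variance trend (0.0584). Ribosome biogenesis gave 6 lower and 0 higher of 55 (10.9%, median -0.11), with Nop58, a snoRNP core protein, from between 13589 and 16671 to between 11718 and 12863 (log2 -0.29 ± 0.05, adjusted p = 0.00012), and 3 lower with median centring. Polyamine and nucleotide synthesis gave 6 lower and 1 higher of 27 (25.9%; 3 lower and 2 higher with probe sets averaged), led by the spermidine synthase Srm (log2 -0.43 ± 0.09, adjusted p = 0.000992). Immediate early genes gave 4 lower and 0 higher of 25 (16%), namely Fosl1, Myc, Klf10 and Klf6, with 0 called by limma in DMSO, where 4 had an unadjusted p under 0.05. The difference of the changes was called in 0 of these 25. As it was called in only 1.65% of all genes, 0 in so short a list does not set these genes apart. In the plot of list medians the P450 genes are the lowest and the lysosomal genes the highest.

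**Figure D5:**
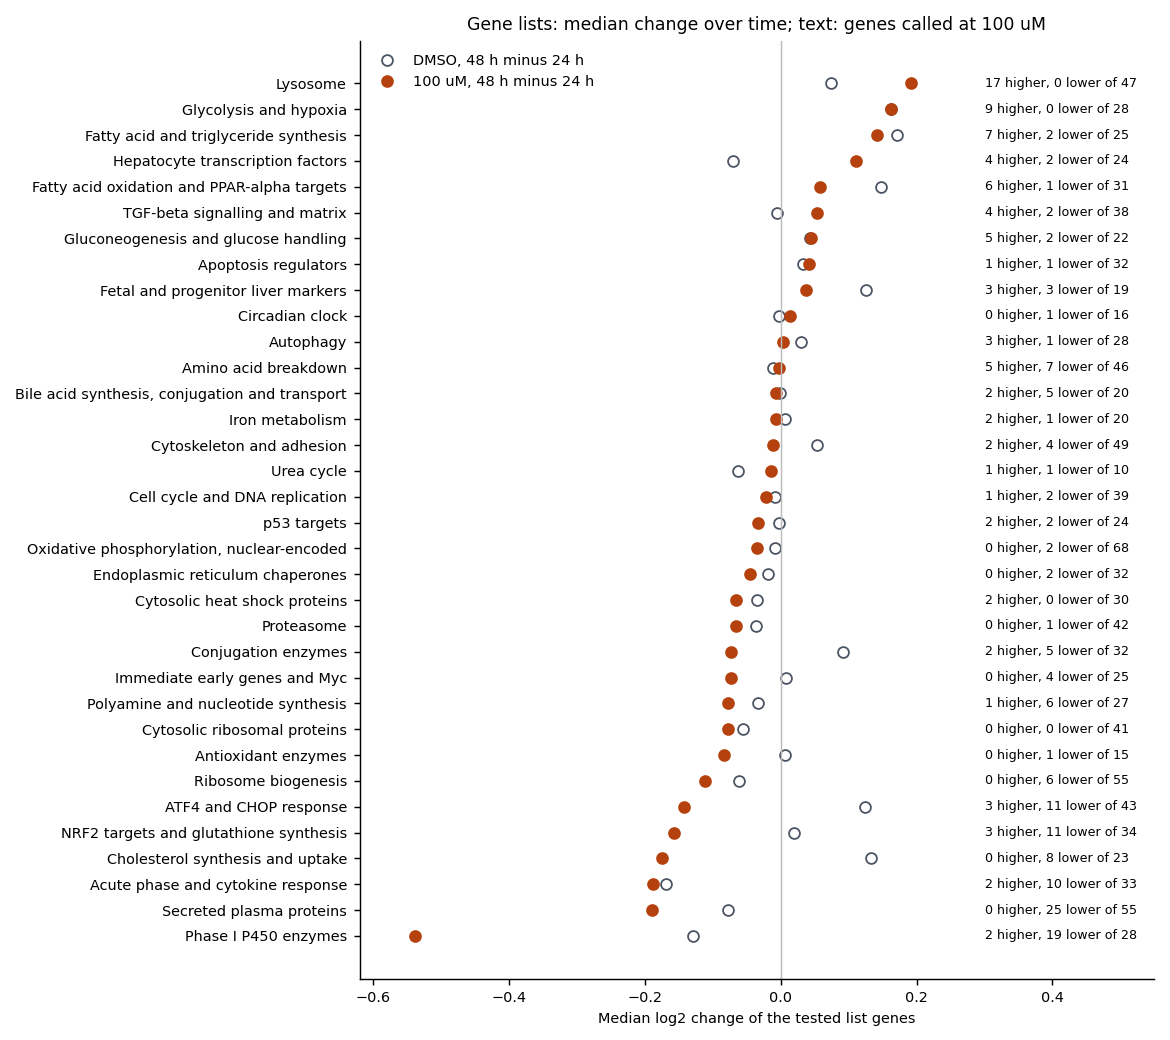
Median log2 change from 24 to 48 h (x axis) of the genes measured in each pathway list (y axis), ordered by the 100 uM value. Filled points are 100 uM cultures and open points DMSO, and the text at the right gives the genes called at 100 uM. Values run from -0.54 for P450 enzymes to 0.19 for lysosomal genes. Cholesterol and ATF4 genes are among several lists whose medians have opposite sign in the 2 series. Others are conjugation enzymes (-0.07 at 100 uM, 0.09 in DMSO) and hepatocyte transcription factors (0.11 and -0.07).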

How the data were processed

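RNA of each of 30 wells was measured on 1 rat expression array. Per the labels, the authors deposited MAS5 signals, a linear intensity for every probe set. The MAS5 version and any detection calls are not given in the sources used here, so dim signals can only be set against the array medians, which ran from 361.677 to 471.419. The number of arrays limits the precision.

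Of 31099 probe sets, 20826 had 1 gene symbol in the platform annotation, 436 several and 9780 none, and 57 were controls. Signals were log2 transformed. Probe sets above the array's own median on 5 or more arrays were kept (13530), and the brightest probe set stood for each of 10222 genes (2546 genes had over 1). The 6 group means were estimated from the 30 arrays together by limma 3.58.1 (R 4.3.3; eBayes with a trend, 24 residual degrees of freedom, two-sided). A gene was called at a Benjamini-Hochberg adjusted p under 0.05, and the SE of a log2 change is the moderated one. Changes were taken at 100 uM, in DMSO and as the difference of the 2. Summed markers and control ratios had exact permutation tests. The comparison, the gene lists and the rules were chosen with earlier results of these data known. The genes named were the 12 largest called changes each way without overlap of the times and with a higher mean above 402.7, up to 3 called members of each list each way by adjusted p (or the 2 brightest), and the 6 largest called differences from DMSO each way among genes whose times at 100 uM did not overlap. For the genes named by size of change or of difference, lack of overlap was a condition of the choice and adds no support. Other called list members are named as complete sets. Promoter sequences are RefSeq's on GRCr8. Serpina6 and Abca8a were named only. Alternatives changed the scaling, filter, pseudocount (16), probe sets per gene, arrays fitted, variance model, array weights, threshold, control ratio and each array in turn, and 1 (the lists without replicate 3 of 100 uM at 48 h) was chosen after seeing the data. The steps were tested on simulated data.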

Additional observations from a re-analysis of the deposited data

Results flagged for a closer look

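In 32 of the 152 named genes the change over time at 100 uM differed from that in DMSO (limma, adjusted p under 0.05). They are singled out here for that reason. Aass, Fam117b, Idua, Npy, Serpina3c, Slc4a4, Ces1d, Cyp2a1, Dhrs7l1, Fabp1, Otc and Slc10a1 met the rule that names genes by a large called difference. The count of 32 is thus partly fixed by the naming and cannot be set against the 1.65% of all genes. The log2 differences, as 100 uM minus DMSO, were negative for Otc (-1.53), Ces1d (-1.52), Pemt (-1.22), Fabp1 (-1.15), Dhrs7l1 (-1.14), Slc10a1 (-1.04), Cyp2a1 (-1.03), Cyp2c11 (-0.91) and Slc27a5 (-0.87). They were smaller and negative for Msmo1 (-0.65), Cyp1a2 (-0.62), Slc7a11 (-0.62), Nupr1 (-0.51), Khk (-0.50), Lcat (-0.50), Rpa3, a subunit of the single-strand DNA binding protein (-0.44), Apcs (-0.39), Tubb4b (-0.35) and the nicotinamide methyltransferase Nnmt (-0.31). Positive differences were found for Hamp (1.34), Npy (1.18), Aass (1.04), Idua (0.98), Serpina3c (0.92), Fam117b (0.90), Slc4a4 (0.83), Acox2 (0.81), Cd68 (0.78), Cyp1a1 (0.60), Slc25a15 (0.59), Gckr (0.50) and the glycogen phosphorylase Pygl (0.28). Under median centring, 58 of all genes had a called difference in place of 169.

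One array lay far from the other 4 of its group in 13 of 304 groups examined (4.28%), where chance alone flags about 1 in 20, or 5%, of groups. At 24 h these were Sez6l2 in replicate 3 (333.3, others 654.2 to 808.8), Pik3c2g in replicate 3 (56.55, others 233.4 to 315.5), Scd2 in replicate 1 (643.3, others 803.2 to 868.9), Slc10a1 in replicate 2 (2338, others 1825 to 1871), Vnn1 in replicate 1 (4065, others 3000 to 3184), Tubb2a in replicate 2 (50456, others 42753 to 44695) and Map2k3os in replicate 5 (557.8, others 671.8 to 718.2). At 48 h they were Dhrs7l1 in replicate 5 (208.9, others 315 to 356.8), Itgb5 in replicate 3 (3024, others 3853 to 4114), Klf6 in replicate 1 (8141, others 8877 to 8971), Nnmt in replicate 2 (4356, others 3887 to 4011), Nupr1 in replicate 2 (46179, others 42640 to 43095) and Tat in replicate 1 (8621, others 7894 to 7959). No array held more than 2 of the 13.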

How the results depend on the processing

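The count of genes called at 100 uM (971) was 566 with median centring, 495 at an adjusted p under 0.01 and 178 with at least 1.5-fold as well, and it stayed within 1.5 times of 971 under the other settings (872 without a filter on dim probe sets to 1343 with array weights). For DMSO (458) the counts were 243, 241 and 104 under the first 3 settings and 692 with array weights, and for the difference (169) 58, 63, 67 and 261. Leaving out 1 array at a time gave 749 to 954 at 100 uM, 329 to 431 in DMSO and 118 to 170 for the difference. The replicate block, runs of 6 array numbers in the titles with 1 array of each group, gave 953, 428 and 168. Deviations within a run correlated from -0.051 to 0.068, so the runs did not pair the arrays. Of 147 named genes called, 100 kept direction and call under all 22 alternatives and 0 reversed. Median centring ended 26 of these calls, leaving out 1 array 6 (24 h replicate 5) to 16 (48 h replicate 4), the mean of all probe sets of a gene 12, and every other setting 0 to 5. Values of genes not called turned sign for Rpl26 (0.058) and Rps29 (0.016) with quantile normalization and for Sparc when single arrays were left out (-0.018 to 0.1). The cause of these shifts was not tested. MAS5 signals carry no detection call, so folds of genes near the array median are uncertain.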

Other observations

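The lists here too are set against the 9.5% of all genes that were called. Matrix and TGF-beta genes moved both ways, with 4 of 38 higher and 2 lower (15.8%), 2 each way with median centring and 2 higher and 3 lower with probe sets averaged. Tgfb2, a TGF-beta ligand, rose from 656.5, 571.2, 793.2, 903.1 and 687.8 at 24 h to 1131, 1157, 1354, 1237 and 1302 at 48 h (log2 0.79 ± 0.15, limma adjusted p = 0.000488; 0.93 in DMSO), although averaging its 2 probe sets gave 0.53, which did not pass (adjusted p = 0.261). Ccn2, a matricellular target of that pathway, fell from between 12616 and 14400 to between 9427 and 11731 (log2 -0.36 ± 0.07, adjusted p = 0.00112). The collagen crosslinker Lox was lower by 0.46 on the log2 scale (SE 0.13, adjusted p = 0.0167), a call lost without replicate 5 at 24 h (adjusted p = 0.0762). Of 49 cytoskeleton and adhesion genes 2 rose and 4 fell (12.2%), a balance that depended on scaling (4 higher and 3 lower with quantile normalization, 0 and 2 with median centring). Those that fell included the tubulins Tubb4b, from between 38054 and 40385 to between 31791 and 33464 (log2 -0.27 ± 0.05, adjusted p = 0.000406), and Tubb2a (-0.23 ± 0.05, adjusted p = 0.00287). Fetal and progenitor markers gave 3 higher and 3 lower of 19 (1 and 2 with median centring), with Aldh1a1, a retinaldehyde dehydrogenase, from between 6688 and 7738 to between 8753 and 10501 (log2 0.43 ± 0.08, adjusted p = 0.000577; 0.41 in DMSO).

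Among autophagy genes 3 of 28 rose and 1 fell (14.3% called, against 9.5% of all genes). Optn, a receptor for ubiquitinated cargo, read 7925, 9050, 8316, 8240 and 8607 at 24 h and 11788, 11900, 11261, 11856 and 10617 at 48 h (log2 0.45 ± 0.08, adjusted p = 0.000114). It changed by 0.22 in DMSO, which was not called. The difference of the changes was called in 0 of the 28 genes, against 1.65% of all genes, a share at which a list this short can hold 0. Apoptosis regulators gave 1 higher (0 with median centring) and 1 lower of 32 (6.25%, below the share of all genes). The latter was the survival factor Mcl1, from between 38932 and 44418 to between 33477 and 35517 (log2 -0.25 ± 0.05, adjusted p = 0.00118). Cell cycle genes gave 1 higher and 2 lower of 39 (7.69%, also below that share, and 0 and 1 with median centring), led by Rpa3, from between 9333 and 10414 to between 6042 and 7325 (log2 -0.53 ± 0.08, adjusted p = 3.33e-05). Of 15 antioxidant genes only the methionine sulfoxide reductase Msra was called (6.67% of the list, log2 -0.46 ± 0.11, adjusted p = 0.0033). Bmal1 was the 1 called clock gene of 16 (6.25%), and its fall (log2 -0.60 ± 0.16, adjusted p = 0.0112) was lost without replicate 3 at 48 h (adjusted p = 0.0582), whose signal of 465 lay below the 729.4 to 881.4 of the other 4.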
